A study of Saccharomyces cerevisiae with 12 samples.

Results

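Expression in yeast grown for 5 generations in low-shear modeled microgravity (LSMMG, SMG 5, 3 arrays) was compared with that in control cultures of the same 5 generations (Ctrl 5, 3 arrays). These 6 of the 12 arrays of the series were chosen by their titles alone, which give the condition, the generation and a replicate number, and the other 6 arrays are of LSMMG and control cultures after 25 generations. In both groups the cells were the diploid Saccharomyces cerevisiae strain BY4743 in log phase in rich YPD medium at 30 degrees C, kept from stationary phase by dilution, inside a high aspect ratio vessel (HARV), a rotating vessel filled with medium. For LSMMG the vessel stood upright and the cells revolved around a horizontal axis, falling through the fluid without settling, and for Ctrl 5 it lay flat, so that they revolved around a vertical axis. The control therefore shares the vessel, the medium and the rotation with LSMMG and differs in its orientation to gravity. The study measured glucose in the medium and took the cultures to be in log phase. Its mean reading at 5 generations was lower in LSMMG than in control cultures. The labels do not say whether the 3 arrays of a group came from separate cultures, so the p-values measure the spread between these arrays, which may be technical, and the growth description attached to every sample of the series names 5 generations. BY4743 carries auxotrophic markers, among them HIS3, LEU2 and URA3, but the ratios of the file do not show absolute levels and could not be used to test the strain.

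Yeast cells match growth to the nutrients they sense. With ample glucose and amino acids, signalling through Ras, protein kinase A and the TORC1 complex keeps the nucleolus making ribosomes and carries cells through G1 into DNA replication, while genes for stored carbohydrate, respiration, autophagy and stress protection are held down. When that signalling drops, as on the approach to stationary phase, ribosome assembly genes are turned off together and the transcription factors Msn2, Msn4 and Gis1 turn on the protective genes.

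RNA was hybridized to Affymetrix Yeast Genome 2.0 arrays, and the deposited values are ratios: every array has a median of 1, and each probe set is expressed relative to its own typical level on the 12 arrays. A ratio of 2 means 2 times that level, so ratios describe a gene across arrays and do not rank genes by abundance. Of 10928 probe sets, 8968 were tested with limma on the log2 ratios of the 6 arrays. These were 5498 probe sets of a named gene and 3470 without a gene name, and shares over all probe sets tested include both. Changes are given as log2 differences, the log2 fold change of SMG 5 over Ctrl 5, with their standard error (SE). The p-values are two-sided, with the Benjamini-Hochberg adjustment made over all 8968 probe sets. A changed probe set had to differ at least 2-fold and to have an adjusted p below 0.05, while for members of gene lists the p alone decided, with no fold minimum. With 3 arrays against 3 an exact permutation test cannot go below p = 0.1, so that no such test is given.

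The third Ctrl 5 array stood apart from its group. Over the probe sets tested its log2 ratios correlated at 0.57 and 0.34 with those of Ctrl 5 replicates 1 and 2, and at 0.82 to 0.93 with those of the 3 control arrays of 25 generations, while the SMG 5 arrays correlated with each other at 0.58 to 0.81. Its log2 ratios also spread more, with an SD of 0.699 over probe sets, against 0.344 and 0.412 on the other Ctrl 5 arrays and 0.334 to 0.389 on the SMG 5 arrays. What set the array apart was not tested. By the methods, a control array that clustered apart from the rest, with low background, was dropped before the tests of the study, and the sources used here do not say which array it was, so all 6 arrays were kept here. A legend of the study divides the control arrays between the times in another way than the labels do, and the groups here follow the labels. Values without replicate 3 stand beside those of all 6 arrays for the named genes whose fold change it moved by over 1.5 times, for the 17 named genes that passed only without it and for the lists it moved most.

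LSMMG was accompanied by broad differences in expression at 5 generations, about equally in both directions. Of the 8968 probe sets, 873 (9.73%) changed, 454 (5.06%) higher and 419 (4.67%) lower in SMG 5. The name of a single gene is carried by 833 of the 873, and 40 have no gene name. The rises were the larger, with 22 of at least 8-fold, against 4 falls of that size, and without Ctrl 5 replicate 3 there were 11 such rises and 4 such falls. Every changed probe set had all 3 SMG 5 arrays beyond all 3 Ctrl 5 arrays, as had 44.9% of all probe sets tested. Without a fold minimum 2132 probe sets passed, 1057 higher and 1075 lower. Among the 5449 named genes, 981 (18.0%) were higher and 1024 (18.8%) lower, with a median log2 fold change of 0.07, and these shares are the background for the gene lists. Without Ctrl 5 replicate 3, 748 probe sets changed, of which 681 were among the 873, and all 873 kept their direction. Among the named genes 1353 were then higher and 1264 lower (median 0.02), so that most lists held more members that passed. Leaving out 1 of the 3 SMG 5 arrays brought the higher probe sets to between 262 and 274 and the lower ones to between 343 and 385, and the methods' test, which does not borrow spread between genes, called 162 probe sets, 38 higher and 124 lower.

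**Figure D1:**
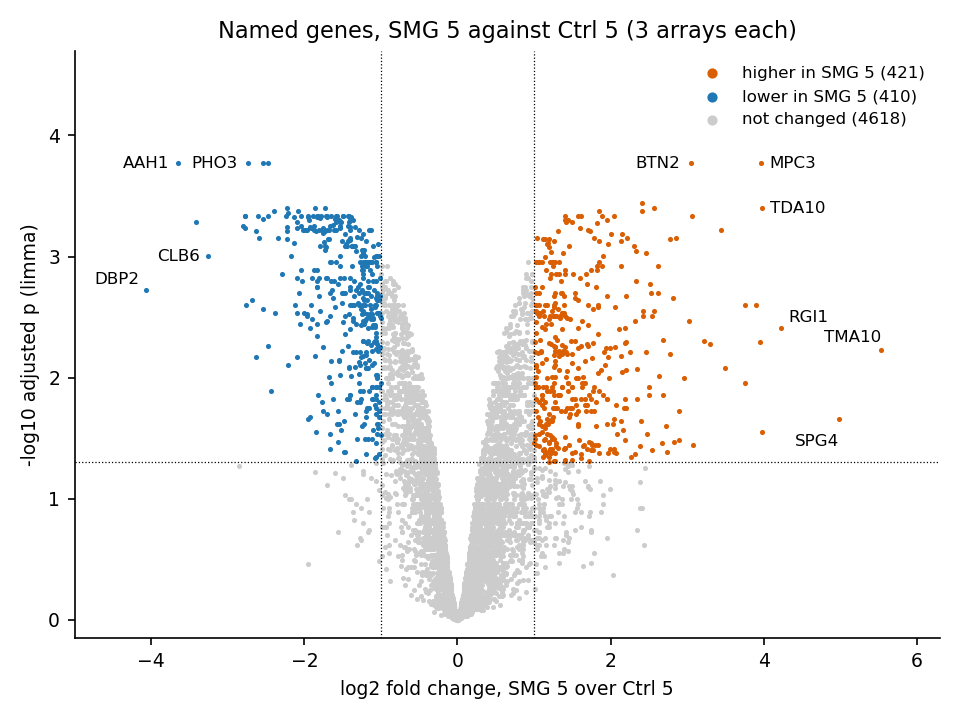
Log2 fold change of SMG 5 over Ctrl 5 (x axis) against -log10 of the adjusted p (y axis, limma, 3 arrays against 3) for the 5449 named genes, each a point. Orange points are changed genes higher in SMG 5, blue points those lower and grey points the rest, and the rises reach further than the falls, with TMA10 at 5.53 and DBP2 at -4.07.

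The spread lay mostly on the control side. Over the 454 probe sets that were higher, the median ratio was 1.52, 1.52 and 1.49 on the SMG 5 arrays, against 0.643, 0.648 and 0.393 on the Ctrl 5 arrays. Over the 419 that were lower it was 0.631, 0.611 and 0.626 in SMG 5, against 1.54, 1.49 and 1.96 in Ctrl 5. The SMG 5 arrays thus held nearly the same level, which the choice of these probe sets by a test on the same arrays favours. Ctrl 5 replicate 3 was the control array farthest from SMG 5 for 703 of the 873 probe sets. The same count over all probe sets tested was not made, and there replicate 3 had the widest spread of the Ctrl 5 arrays (SD 0.699). The 703 therefore do not show that replicate 3 stood apart more often for changed probe sets than for others. The median SD of the log2 ratios of the changed probe sets was 0.0835 in SMG 5 and 0.368 in Ctrl 5. Over all probe sets tested it was 0.0937 and 0.199, a smaller contrast.

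**Figure D2:**
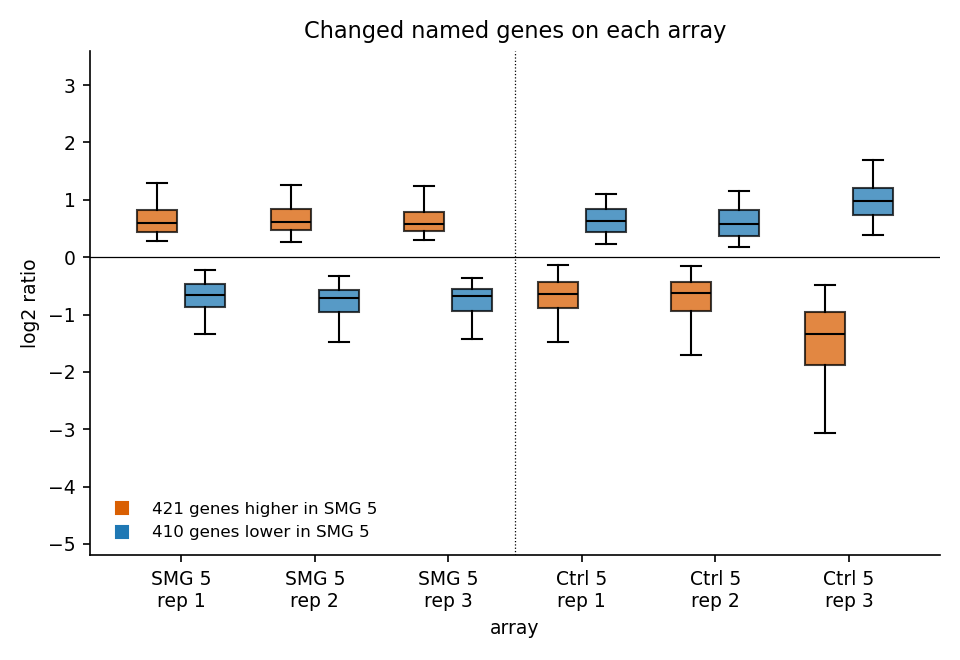
Log2 ratio (y axis) of the changed named genes on each of the 6 arrays (x axis, SMG 5 on the left, Ctrl 5 on the right), for the 421 genes higher in SMG 5 (orange) and the 410 lower (blue). Boxes span the quartiles with a line at the median, and whiskers the 5th to 95th percentile. The SMG 5 boxes are alike, which the choice of changed genes favours, and those of Ctrl 5 replicate 3 lie farthest from them.

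The largest rise was that of TMA10, a small protein that binds ribosomes, at a ratio of 3.49, 4.08 and 3.79 in SMG 5, against 0.137, 0.208 and 0.0193 in Ctrl 5, a log2 difference of 5.53 (SE 0.84, adjusted p = 0.0059). SPG4, needed for survival in stationary phase, had 2.16, 2.26 and 2.1 in SMG 5, against 0.218, 0.146 and 0.010 in Ctrl 5, a log2 difference of 4.99 (SE 1.11, adjusted p = 0.022). The last of these control values is the lowest on the 6 arrays. RGI1, which acts in energy metabolism under respiration, had 2.79, 2.81 and 2.74 in SMG 5, against 0.221, 0.271 and 0.0553 in Ctrl 5, a log2 difference of 4.22 (SE 0.58, adjusted p = 0.0039). For these genes all SMG 5 arrays lay far above all Ctrl 5 arrays, and the third control array was the lowest. Without it the rises were 4.48, 3.61 and 3.51 (adjusted p = 1.2e-04, 1.5e-04 and 7.9e-05).

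Several of the largest rises did not rest on that array. TDA10, which encodes an ATP-binding protein of unknown function, had 1.57, 2.05 and 1.94 in SMG 5, against 0.143, 0.0933 and 0.119 in Ctrl 5, a log2 difference of 3.98 (SE 0.19, adjusted p = 4.0e-04). MPC3, the subunit of the mitochondrial pyruvate carrier used in respiratory growth, had 2.77, 2.45 and 2.17 in SMG 5, against 0.158, 0.174 and 0.138 in Ctrl 5, a log2 difference of 3.97 (SE 0.14, adjusted p = 1.7e-04). BTN2, which collects misfolded proteins, had 1.81, 2.08 and 1.91 in SMG 5, against 0.243, 0.254 and 0.205 in Ctrl 5, a log2 difference of 3.05 (SE 0.12, adjusted p = 1.7e-04). In these the Ctrl 5 arrays lay close together. TDA1, a protein kinase that acts on the hexokinase Hxk2, also rose, by 3.06 (SE 0.19, adjusted p = 4.6e-04), as did RTS3, a likely component of a protein phosphatase complex, by 3.03 (adjusted p = 0.0034), and both differences were larger without replicate 3. Others had that array below the other controls. YPT53, a stress-induced GTPase of endosomes, rose by 3.22 (adjusted p = 0.005), and by 2.64 without it. PUT1, the proline oxidase of the mitochondrion, had 4.38, 4.04 and 3.88 in SMG 5, against 0.508, 0.586 and 0.0936 in Ctrl 5, a log2 difference of 3.76 (SE 0.68, adjusted p = 0.011). ATO2, a plasma membrane protein of ammonia export, had 3.85, 3.46 and 3.48 in SMG 5, against 0.539, 0.57 and 0.157 in Ctrl 5, a log2 difference of 3.30 (SE 0.49, adjusted p = 0.0053). For PUT1 and ATO2, Ctrl 5 replicate 3 lay well below the other control arrays, and without it the rises were 2.91 and 2.70.

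**Figure D3:**
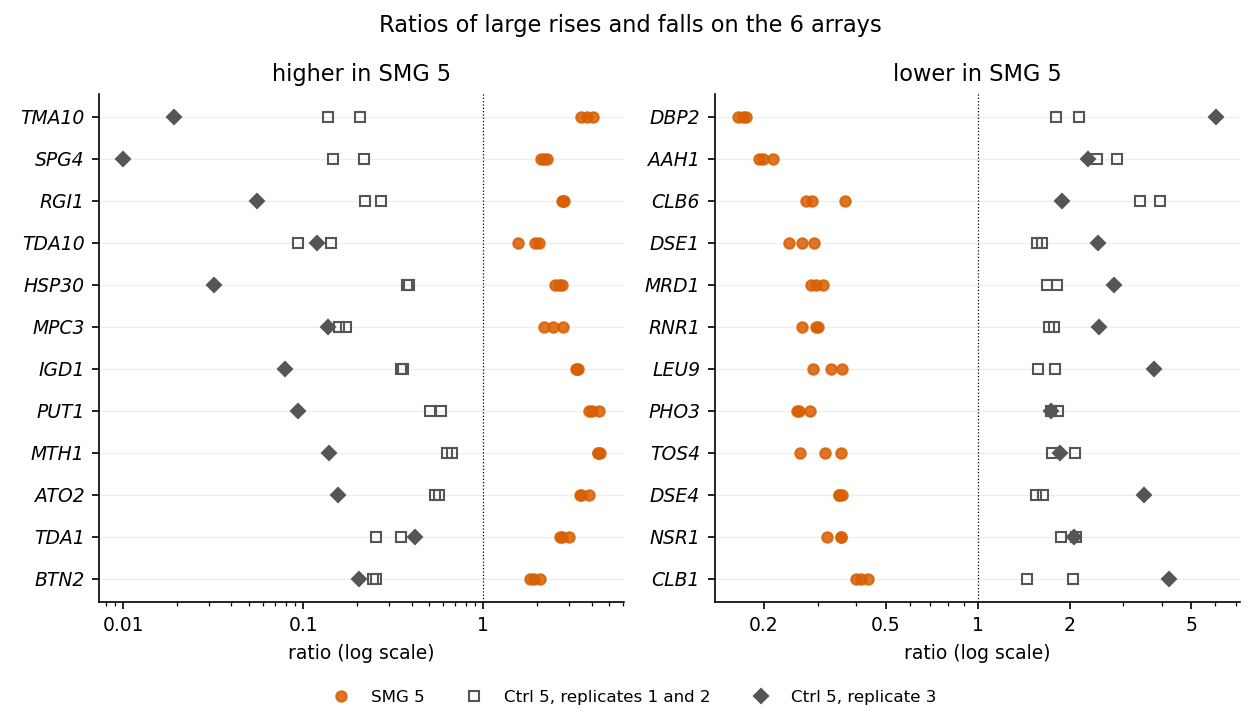
Ratios (x axis, log scale) of 12 of the largest rises and 12 of the largest falls, 1 gene a line, with the 3 SMG 5 arrays (orange circles) and the 3 Ctrl 5 arrays (grey symbols, replicate 3 as a diamond). The groups do not overlap for any of these genes, which follows from their choice, and do not for 44.9% of all probe sets tested. The SMG 5 points lie close together, and the Ctrl 5 diamond often lies apart from the other control arrays.

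Genes of stationary phase and desiccation formed the list with the highest median on the 6 arrays, 1.49 over 40 members, against 0.07 for all named genes. Of these, 17 were higher and 0 lower. Beside TMA10, SPG4 and RGI1 they included STF2, which protects against desiccation (2.11, adjusted p = 0.004), SIP18, whose product protects dried cells (2.90, adjusted p = 0.019, and 2.13 without Ctrl 5 replicate 3), and SPG1, needed in stationary phase (2.20, adjusted p = 0.0051). USV1, a transcription factor for growth on nonfermentable carbon, had 2.33, 2.25 and 2.2 in SMG 5, against 0.555, 0.523 and 0.253 in Ctrl 5, a log2 difference of 2.43 (SE 0.30, adjusted p = 0.0028). Without Ctrl 5 replicate 3 the list's median was 0.74, with 28 members higher, and it no longer ranked first, since those of trehalose metabolism and autophagy were 0.89 and 0.81. Some well known stress genes passed only without that array. DDR2, a target of Msn2 and Msn4, had 1.83, 1.81 and 1.72 in SMG 5, against 0.986, 1.03 and 0.0349 in Ctrl 5, and CTT1, the cytosolic catalase, had 1.09, 1.33 and 1.24 in SMG 5, against 0.909, 0.727 and 0.142 in Ctrl 5. For both, Ctrl 5 replicates 1 and 2 lay below SMG 5 and replicate 3 far below, and neither passed (adjusted p = 0.24 and 0.19). Without that array the differences were 0.83 for DDR2 (adjusted p = 8.5e-04) and 0.58 for CTT1 (adjusted p = 0.023). HSP12, a membrane-stabilizing heat shock protein, had 1.1, 1.17 and 1.11 in SMG 5, against 0.966, 0.979 and 0.384 in Ctrl 5 and did not pass with or without it (adjusted p = 0.26 and 0.1).

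Of the heat shock proteins and chaperones, 8 of 38 (21.1%) were higher, near the 18.0% of all named genes, and 2 lower (median 0.35). Without Ctrl 5 replicate 3, 13 were higher and 3 lower, with a median of 0.21. HSP30, which holds back the plasma membrane proton pump, had 2.64, 2.75 and 2.51 in SMG 5, against 0.378, 0.385 and 0.0321 in Ctrl 5, a log2 difference of 3.98 (SE 0.95, adjusted p = 0.028). Its lowest control was replicate 3, and without it the difference was 2.79 (adjusted p = 7.9e-05). CUR1, a partner of BTN2 in sorting misfolded proteins, rose by 2.72 (adjusted p = 0.025, and by 1.94 without that array), APJ1, a nuclear J-protein, by 1.94 (adjusted p = 0.0057), HSP78, the mitochondrial disaggregase, by 1.35 (adjusted p = 0.019), and FES1, an exchange factor of the Hsp70 chaperones, by 0.96 (adjusted p = 0.0018). HSP26, HSP42 and HSP104, which hold or pull apart aggregates, had differences of 1.16, 1.38 and 0.49 (adjusted p = 0.24, 0.22 and 0.073), and passed without replicate 3 at 0.38, 0.51 and 0.32 (adjusted p = 0.016, 0.0055 and 0.023). The ribosome-bound chaperone SSB1 was lower, at -0.40 (adjusted p = 0.021), but its other probe set was at -0.13, and with that one the list had 1 member lower. Of 41 genes of oxidative stress defence, 12 were higher and 0 lower (median 0.53), and without Ctrl 5 replicate 3 the count was 25. TRX3, the mitochondrial thioredoxin, had 1.62, 1.55 and 1.63 in SMG 5, against 0.583, 0.562 and 0.65 in Ctrl 5, a log2 difference of 1.42 (SE 0.10, adjusted p = 5.2e-04), and OXR1, linked to oxidation resistance, rose by 1.60 (adjusted p = 0.0015). The TRX3 values were close together in both groups, which the choice of members by test statistic favours.

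Genes of stored carbohydrate were in part higher. Of 18 genes of glycogen metabolism 7 passed, all higher (median 1.25), and of 9 of trehalose metabolism 5 passed, all higher (median 1.13). IGD1, an inhibitor of glycogen debranching, had 3.37, 3.31 and 3.25 in SMG 5, against 0.358, 0.351 and 0.0792 in Ctrl 5, a log2 difference of 3.95 (SE 0.58, adjusted p = 0.0051), and 3.22 without Ctrl 5 replicate 3. PCL8, a cyclin of the kinase Pho85 in glycogen storage, had 1.71, 1.77 and 1.69 in SMG 5, against 0.577, 0.64 and 0.501 in Ctrl 5, a log2 difference of 1.60 (SE 0.12, adjusted p = 5.8e-04). GLC8, a regulator of the phosphatase Glc7, had 1.65, 1.62 and 1.5 in SMG 5, against 0.597, 0.607 and 0.54 in Ctrl 5, a log2 difference of 1.45 (SE 0.10, adjusted p = 5.0e-04). Among the members that passed was also the glycogen primer GLG1 (1.95, adjusted p = 0.015). The glycogen synthases GSY1 and GSY2 had differences of 1.21 and 0.73 that missed the threshold (adjusted p = 0.059 and 0.073), and GSY1 passed without that array, at 0.78 (adjusted p = 0.011). In trehalose metabolism the synthase TPS1 rose by 1.13 (adjusted p = 0.018), the phosphatase TPS2 by 1.31 (adjusted p = 0.014) and the regulatory subunits TPS3 and TSL1 by 0.68 and 1.31 (adjusted p = 0.02 and 0.038), while PGM2, the phosphoglucomutase that feeds both stores, rose by 1.55 (adjusted p = 0.01). Leaving out Ctrl 5 replicate 3, the glycogen median was 0.57 and the trehalose median 0.89.

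Glucose sensing and repression formed a list of 29 genes in which 15 were higher and 1 lower (median 0.76). MTH1, which blocks the induction of hexose transporters when glucose is scarce, had 4.47, 4.35 and 4.32 in SMG 5, against 0.673, 0.631 and 0.14 in Ctrl 5, a log2 difference of 3.49 (SE 0.59, adjusted p = 0.0084). Ctrl 5 replicate 3 was its lowest array, and without it the rise was 2.75 (adjusted p = 7.9e-05). MIG2, a repressor that acts when glucose is present, had 2.46, 2.53 and 2.45 in SMG 5, against 0.433, 0.381 and 0.73 in Ctrl 5, a log2 difference of 2.33 (SE 0.24, adjusted p = 0.0016), and the related MIG1 and MIG3 rose by 1.0 and 1.67 (adjusted p = 0.014 and 0.017). REG1, the subunit that directs Glc7 to the glucose pathway, rose by 1.21 (adjusted p = 0.0015), invertase (SUC2) by 1.21 (adjusted p = 0.0031), and SNF3, a glucose sensor, by 0.76 (adjusted p = 0.0041). Regulators with opposite roles rose side by side, and the corepressor CYC8 was the member that fell (-0.59, adjusted p = 0.016).

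The hexose transporters HXT1, HXT2 and HXT5 separated the control arrays. HXT1, the low-affinity carrier of high glucose, had 0.958, 0.979 and 0.927 in SMG 5, against 0.331, 0.235 and 2.63 in Ctrl 5, and HXT2, a carrier of low glucose, had 1.09, 0.984 and 1.01 in SMG 5, against 0.216, 0.164 and 1.53 in Ctrl 5. For both, SMG 5 lay between the control arrays, above replicates 1 and 2 and below replicate 3, and neither passed (adjusted p = 0.63 and 0.27). Without replicate 3 they were higher by 1.77 and 2.45 (adjusted p = 5.9e-04 and 1.8e-04). In HXT5, a carrier of slowly growing and starved cells, replicate 3 was the lowest control, with 2.1, 2.29 and 2.37 in SMG 5, against 0.553, 0.623 and 0.091 in Ctrl 5, a log2 difference of 2.83 (SE 0.72, adjusted p = 0.034), and 1.94 without it (adjusted p = 1.6e-04). HXT3 and HXT7, carriers of high and of low glucose, rose by 0.73 and 0.82 (adjusted p = 0.0059 and 0.005). Their control arrays lay closer together, with 0.725, 0.738 and 0.884 for HXT3 and 1.02, 0.927 and 0.833 for HXT7 in Ctrl 5. HXT6 matched no probe set, and that of HXT7 may read both genes, so the member is uncertain. Of 16 measured transporters 3 (18.8%) were higher, near the 18.0% of all named genes, and 0 lower (median 0.46). Without replicate 3, 5 were higher and 0 lower (median 0.07).

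Of 30 genes of glycolysis and fermentation 6 were higher and 1 lower, a share of rises near the 18.0% of all named genes. CDC19, the pyruvate kinase of fermenting cells, had a difference of 0.17 (SE 0.09, adjusted p = 0.21), PGK1 of -0.02 (SE 0.09, adjusted p = 0.88), TDH3 of 0.06 (SE 0.08, adjusted p = 0.67), PDC1 of 0.05 (SE 0.08, adjusted p = 0.75) and ADH1 of 0.08 (SE 0.10, adjusted p = 0.6). Their ratios lay between 0.865 and 1.06 on the 6 arrays. PYK2, the pyruvate kinase of low glycolytic flux, rose by 0.83 (adjusted p = 0.021), the phosphoglycerate mutase homologs GPM2 and GPM3 by 0.96 and 0.86 (adjusted p = 0.0073 and 0.005), ADH5 by 0.82 (adjusted p = 0.013) and PFK26, which makes the activator of phosphofructokinase, by 2.26 (adjusted p = 0.0062). HXK1, the hexokinase that glucose represses, had 1.58, 1.75 and 1.6 in SMG 5, against 0.726, 0.602 and 0.311 in Ctrl 5, a log2 difference of 1.67 (SE 0.31, adjusted p = 0.011), against a difference of 0.34 for HXK2, the hexokinase of glucose growth (adjusted p = 0.19), which passed without Ctrl 5 replicate 3, at 0.49 (adjusted p = 0.021). GPP1, a glycerol phosphatase, was the member that was lower (-1.06, adjusted p = 0.012).

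Lists of mitochondrial and related genes differed in their share of rises. It was 45.5% for pyruvate transport and dehydrogenase and 35.3% for the tricarboxylic acid cycle. Carnitine and peroxisomal genes had 25.6% and the glyoxylate list 24.0%. Snf1 and related regulators had 14.3% and the respiratory chain and ATP synthase 9.09%, both below the 18.0% of all named genes. That order rested on Ctrl 5 replicate 3. Without it 8 of 21 and 13 of 44 were higher, against 1353 of 5449 named genes, so both shares then lay above that of all named genes. In the tricarboxylic acid cycle 6 of 17 were higher and 0 lower (median 0.74), and 11 were higher and 2 lower without Ctrl 5 replicate 3. MDH1, the mitochondrial malate dehydrogenase, had 2.14, 1.97 and 1.79 in SMG 5, against 0.67, 0.599 and 0.516 in Ctrl 5, a log2 difference of 1.73 (SE 0.13, adjusted p = 6.2e-04). KGD2, of the ketoglutarate dehydrogenase, rose by 1.07 (adjusted p = 0.0031), the peroxisomal citrate synthase CIT2 by 1.37 (adjusted p = 0.012) and the isocitrate dehydrogenase subunit IDH2 by 0.72 (adjusted p = 0.02). Of 44 genes of the respiratory chain and ATP synthase only 4 were higher and 0 lower, none by 2-fold, although the median was 0.51. Without Ctrl 5 replicate 3 the median was 0.23 and 13 were higher. HAP4, the activating subunit of the regulator of respiration, had 2.11, 1.73 and 1.28 in SMG 5, against 0.754, 0.707 and 0.351 in Ctrl 5, a log2 difference of 1.55 (SE 0.34, adjusted p = 0.02), and its partner HAP2 rose by 1.37 (adjusted p = 0.0029), in a list of Snf1 and related regulators with 3 of 21 higher and 0 lower, and 8 and 1 without Ctrl 5 replicate 3. The pyruvate dehydrogenase kinases PKP1 and PKP2 rose by 1.14 and 0.65 (adjusted p = 0.016 and 0.0091). MPC2, the carrier subunit of fermenting cells, was lower at -0.43 (adjusted p = 0.032), in contrast to MPC3 above, and of 11 genes of pyruvate transport and dehydrogenase 5 were higher and 1 lower. Genes for growth on acetate and ethanol included risers such as ADH2, the ethanol-oxidizing dehydrogenase (2.17, adjusted p = 0.018), and ACS1, an acetyl-CoA synthetase (1.34, adjusted p = 0.014), and MAE1, the malic enzyme, which fell by 2.59 on the log2 scale (adjusted p = 7.0e-04). Over the glyoxylate, gluconeogenesis and acetate list 6 of 25 were higher and 2 lower (median 0.42), with a median of 0.09 without Ctrl 5 replicate 3. In the list of carnitine carriers and peroxisomal fatty acid oxidation 11 of 43 were higher and 4 lower (18 and 4 without that array), among them the peroxisomal catalase CTA1 (1.26, adjusted p = 0.0031) and, lower, the acyl-CoA synthetase FAA4 (-1.53, adjusted p = 5.2e-04).

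Autophagy genes rose from several steps of the pathway. Of 34 measured, 19 were higher, 15 of them by at least 2-fold, and 0 were lower (median 1.04), and 25 were higher without Ctrl 5 replicate 3 (median 0.81). ATG1, the kinase that starts autophagy, had 2.32, 2.92 and 2.6 in SMG 5, against 0.806, 0.706 and 0.425 in Ctrl 5, a log2 difference of 2.06 (SE 0.25, adjusted p = 0.0026). ATG3, the enzyme that attaches Atg8 to lipid, had 2.0, 1.9 and 1.97 in SMG 5, against 0.479, 0.535 and 0.343 in Ctrl 5, a log2 difference of 2.14 (SE 0.17, adjusted p = 7.4e-04). ATG7, ATG17, ATG19 and ATG31 rose by 1.27, 1.84, 1.38 and 1.63 (adjusted p = 0.0056, 0.0091, 0.006 and 0.011). The members that rose included parts of the starting complex, the conjugation steps and a cargo receptor. ATG8 itself had 1.48, 1.56 and 1.23 in SMG 5, against 0.711, 0.778 and 0.103 in Ctrl 5, and its difference of 1.88 missed the threshold (adjusted p = 0.13), while without replicate 3 it was 0.93 (adjusted p = 0.003). Of 13 vacuolar proteases and inhibitors 2 (15.4%) were higher, near the 18.0% of all named genes, and 0 lower. Without replicate 3 the counts were 7 and 0. CPS1, a vacuolar carboxypeptidase, had 1.14, 1.51 and 1.65 in SMG 5, against 0.433, 0.259 and 0.151 in Ctrl 5, a log2 difference of 2.46 (SE 0.38, adjusted p = 0.0061). The proteasome list was nearly even, with 5 of 34 higher and 3 lower, but RPN4, the transcription factor of proteasome genes, had 1.92, 1.95 and 1.88 in SMG 5, against 0.597, 0.609 and 0.673 in Ctrl 5, a log2 difference of 1.61 (SE 0.09, adjusted p = 4.6e-04).

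**Figure D4:**
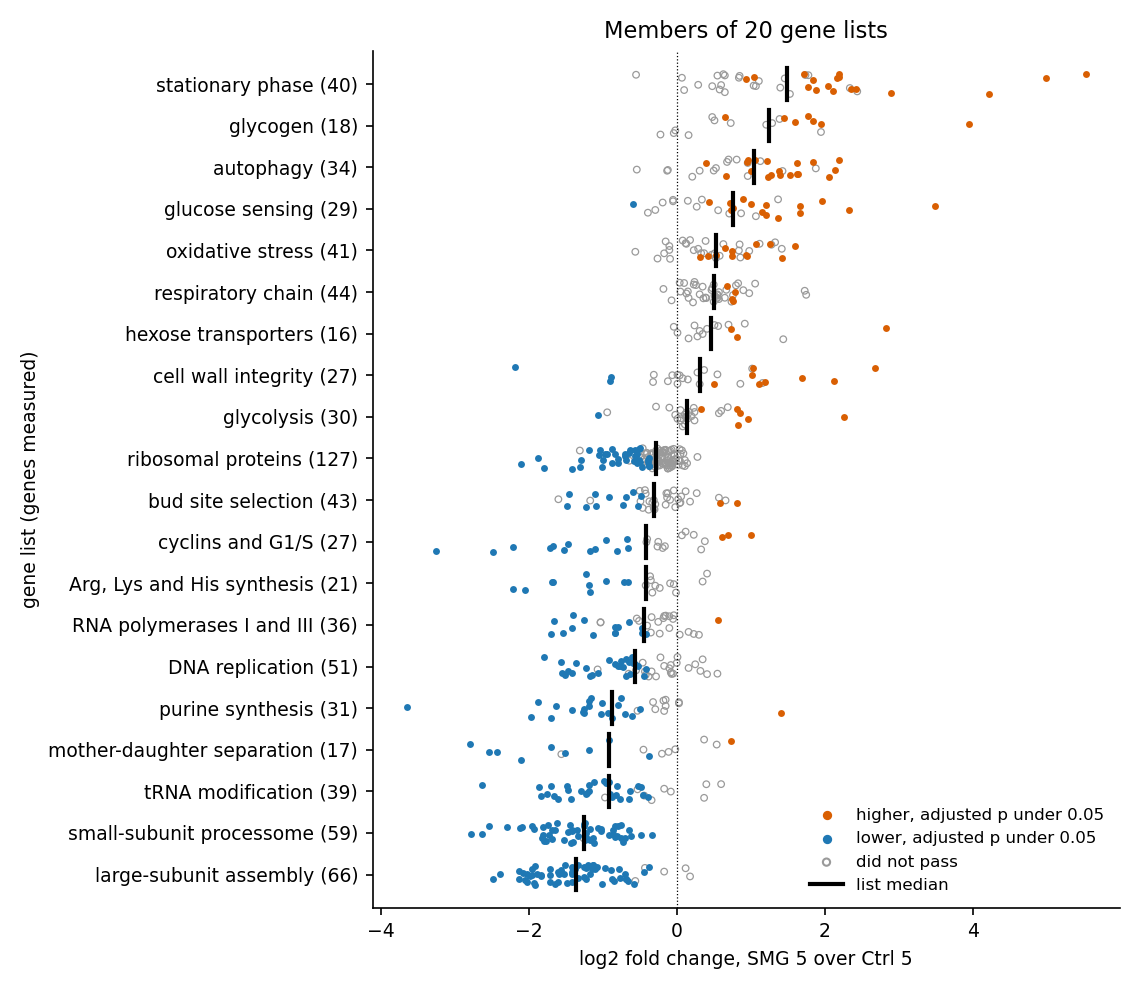
Log2 fold change of SMG 5 over Ctrl 5 (x axis) of the members of 20 gene lists, 1 list a line ordered by median, each point a gene. Filled points pass at an adjusted p under 0.05 (orange higher, blue lower), open grey points do not, and black bars mark list medians, with ribosome assembly at the low end (medians of -1.36 and -1.25) and stationary phase genes at the high end (1.49).

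The largest fall was that of DBP2, a DEAD-box helicase that acts in RNA turnover, with 0.165, 0.171 and 0.175 in SMG 5, against 2.14, 1.8 and 6.03 in Ctrl 5, a log2 difference of -4.07 (SE 0.44, adjusted p = 0.0019). Ctrl 5 replicate 3 was the highest array, and without it the difference was -3.53, smaller than those of AAH1 and CLB6 (-3.72 and -3.57). AAH1, the adenine deaminase, whose level marks proliferating cells, had 0.192, 0.198 and 0.214 in SMG 5, against 2.45, 2.87 and 2.29 in Ctrl 5, a log2 difference of -3.65 (SE 0.12, adjusted p = 1.7e-04). CLB6, a cyclin of S phase entry, had 0.368, 0.274 and 0.288 in SMG 5, against 3.39, 3.96 and 1.9 in Ctrl 5, a log2 difference of -3.26 (SE 0.29, adjusted p = 9.9e-04). The groups stood far apart in each, with the SMG 5 arrays close together. PHO3, an acid phosphatase, had 0.282, 0.261 and 0.257 in SMG 5, against 1.83, 1.74 and 1.74 in Ctrl 5, a log2 difference of -2.73 (SE 0.09, adjusted p = 1.7e-04), and LEU9, an enzyme of leucine synthesis, had 0.359, 0.289 and 0.332 in SMG 5, against 1.8, 1.58 and 3.77 in Ctrl 5, a log2 difference of -2.76 (SE 0.33, adjusted p = 0.0025).

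The ribosome assembly lists had the largest shares of members that passed. Of 66 assembly factors of the large subunit 61 were lower, 48 of them by at least 2-fold, and 0 higher (median -1.36), and of 59 members of the small-subunit processome, which cuts and folds the rRNA precursor, 58 were lower, 43 by at least 2-fold, and 0 higher (median -1.25). These medians were -1.29 and -1.18 without Ctrl 5 replicate 3, so neither rested on that array alone. NSR1, a nucleolar RNA-binding protein, had 0.357, 0.322 and 0.357 in SMG 5, against 1.87, 2.1 and 2.06 in Ctrl 5, a log2 difference of -2.54 (SE 0.10, adjusted p = 1.7e-04). ALB1, a factor that travels with the large subunit to the cytoplasm, had 0.489, 0.46 and 0.462 in SMG 5, against 2.43, 2.7 and 2.73 in Ctrl 5, a log2 difference of -2.48 (SE 0.09, adjusted p = 1.7e-04). IMP3, which pairs the precursor with the U3 RNA, had 0.708, 0.678 and 0.675 in SMG 5, against 2.25, 2.21 and 2.36 in Ctrl 5, a log2 difference of -1.73 (SE 0.09, adjusted p = 4.0e-04). Each of these had a tight cluster of values in both groups, which the choice of members by test statistic favours. MRD1, RIX1, ARX1 and REI1, early and late assembly factors, fell by 2.78, 2.39, 2.08 and 2.05 on the log2 scale (adjusted p = 5.8e-04, 4.2e-04, 4.2e-04 and 4.6e-04). TIF6, which keeps immature large subunits from joining, had a difference of -0.17 (SE 0.19, adjusted p = 0.59) and was among the members that did not pass. The 1 member of the processome that did not pass was UTP20, at -1.26 (SE 0.49, adjusted p = 0.12). Both passed without Ctrl 5 replicate 3, TIF6 at -0.37 and UTP20 at -0.65 (adjusted p = 0.037 and 0.0023).

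The rest of the translation apparatus had medians nearer 0. Of 36 genes of RNA polymerases I and III and their factors 15 were lower and 1 higher (median -0.44). RPA34, an RNA polymerase I subunit, had 0.471, 0.536 and 0.538 in SMG 5, against 1.69, 1.53 and 1.79 in Ctrl 5, a log2 difference of -1.70 (SE 0.11, adjusted p = 4.7e-04), and RPA12, RPA43 and RPA49 of the same enzyme were at -1.13, -1.54 and -1.40 (adjusted p = 6.0e-04, 9.9e-04 and 7.3e-04). Of 39 tRNA modification enzymes 30 were lower and 0 higher (median -0.92), among them GCD10, which methylates initiator tRNA (-1.86, adjusted p = 4.0e-04), and TRM11 (-2.63, adjusted p = 0.0067). Of 21 cytosolic aminoacyl-tRNA synthetases 13 were lower and 0 higher (median -0.51), and of 37 translation factors 17 were lower and 1 higher (median -0.39). The ribosomal proteins themselves had the smallest median of these cytosolic lists, with 38 of 127 lower and 0 higher and a median of -0.28, and 46 lower and 1 higher without Ctrl 5 replicate 3. Some lower members were 1 gene of a duplicated pair. RPL18B was at -2.10 (adjusted p = 0.0068), RPS9A at -1.88 (adjusted p = 0.0013) and RPL22A at -1.80 (adjusted p = 8.2e-04), with 0.473, 0.498 and 0.505 in SMG 5, against 1.5, 1.57 and 2.13 in Ctrl 5. RPS18B was at -1.30 (adjusted p = 0.0018), against -0.16 for its copy RPS18A (adjusted p = 0.32), but the other probe set of RPS18B was at -0.19. RPL16A was at -0.88 (adjusted p = 0.0034), against -0.07 for RPL16B (adjusted p = 0.74). Probe sets of such near-identical copies can share signal, so the split between copies is uncertain, and the difference between copies was not tested. Mitochondrial ribosomal proteins were mixed, with 10 of 70 higher and 4 lower (median 0.06), and 19 and 6 without Ctrl 5 replicate 3 (median 0.12).

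Purine genes were mostly lower. Of 31 genes of purine synthesis and salvage 21 were lower and 1 higher (median -0.88). Beside AAH1, ADE4, the first enzyme of the pathway, had 0.449, 0.482 and 0.528 in SMG 5, against 1.49, 1.61 and 1.64 in Ctrl 5, a log2 difference of -1.70 (SE 0.10, adjusted p = 4.6e-04), ADE17, which closes the ring, was at -1.88 (adjusted p = 6.0e-04), and MTD1, an enzyme of one-carbon metabolism, at -1.97 (adjusted p = 6.0e-04). The activator BAS1 was at -1.19 (adjusted p = 0.0012), and its partner PHO2 was the 1 member that was higher (1.41, adjusted p = 0.0031). In pyrimidine synthesis and salvage 9 of 23 were lower and 0 higher (median -0.31), among them FUR1, which salvages uracil (-1.73, adjusted p = 8.8e-04) and FCY2, a permease of purines and cytosine (-2.22, adjusted p = 7.2e-04). RNR1, the large subunit of ribonucleotide reductase, had 0.266, 0.297 and 0.301 in SMG 5, against 1.78, 1.72 and 2.49 in Ctrl 5, a log2 difference of -2.77 (SE 0.16, adjusted p = 4.6e-04). RNR2 and RNR4, its small subunits, had differences of 0.22 (SE 0.09, adjusted p = 0.16) and 0.33 (SE 0.13, adjusted p = 0.12), and RNR3, the damage-induced large subunit, of 0.12 (SE 0.25, adjusted p = 0.79). RNR1 was the subunit gene that passed, in a list of reductase genes and regulators with 3 of 11 lower and 1 higher.

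Amino acid synthesis and uptake were lower in part. Of 21 genes of arginine, lysine and histidine synthesis 10 were lower and 0 higher (median -0.42). HIS1, the first enzyme of histidine synthesis, had 0.415, 0.359 and 0.403 in SMG 5, against 1.71, 1.54 and 2.3 in Ctrl 5, a log2 difference of -2.22 (SE 0.17, adjusted p = 6.1e-04), and ARG1, the argininosuccinate synthase, was at -2.05 (adjusted p = 0.0013). Of 13 genes of aromatic synthesis 6 and of 12 of branched-chain synthesis 4 were lower, with 0 higher in either. The permease list held 9 of 25 lower and 1 higher, although its median was 0.16, and 10 lower and 4 higher with a median of -0.13 without Ctrl 5 replicate 3. TAT1, a carrier of tyrosine, tryptophan and other residues, had 0.455, 0.381 and 0.393 in SMG 5, against 1.99, 1.45 and 3.34 in Ctrl 5, a log2 difference of -2.38 (SE 0.30, adjusted p = 0.0029), and MUP1, the methionine permease, was at -1.64 (adjusted p = 0.0019), BAP3 at -1.56 (adjusted p = 0.0017) and HIP1, the histidine permease, at -1.38 (adjusted p = 0.0025), while AGP2, a carnitine carrier and regulator, was at 1.67 (adjusted p = 0.015). SAM1, which makes S-adenosylmethionine, was at -1.90 (adjusted p = 0.0015). In the phosphate and zinc list 12 of 34 were lower and 3 higher. PHO84, the high-affinity phosphate carrier, had 0.484, 0.448 and 0.443 in SMG 5, against 1.52, 1.54 and 1.88 in Ctrl 5, a log2 difference of -1.84 (SE 0.12, adjusted p = 4.7e-04), and PHO5, the secreted phosphatase next to PHO3 on its chromosome, was at -2.35 (adjusted p = 7.0e-04). Those phosphate values separated cleanly between the groups, as did those of every changed probe set.

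Genes of G1, S phase and mitosis were among the falls. In RNA of whole cultures, a lower level of a gene confined to 1 phase cannot be told apart from fewer cells in that phase. Of 27 cyclins and G1/S regulators 13 were lower and 3 higher (median -0.41). CLN1, a G1 cyclin, had 0.526, 0.612 and 0.53 in SMG 5, against 1.87, 2.13 and 1.53 in Ctrl 5, a log2 difference of -1.72 (SE 0.15, adjusted p = 8.4e-04). NRM1, a corepressor of G1 genes, had 0.371, 0.309 and 0.361 in SMG 5, against 1.66, 1.52 and 1.64 in Ctrl 5, a log2 difference of -2.22 (SE 0.11, adjusted p = 4.0e-04). TOS4, a chromatin protein made at the G1/S border, was at -2.61 (adjusted p = 4.6e-04). CLN3, the cyclin that triggers this wave, had a difference of 0.12 (SE 0.16, adjusted p = 0.65), and PCL7, a Pho85 cyclin, was higher at 1.01 (adjusted p = 0.0018). Of 51 genes of the replication machinery 27 were lower and 0 higher (median -0.57). MCM7, of the replicative helicase, had 0.551, 0.56 and 0.502 in SMG 5, against 1.46, 1.56 and 1.7 in Ctrl 5, a log2 difference of -1.55 (SE 0.10, adjusted p = 5.0e-04), RFC3, of the clamp loader, was at -1.15 (adjusted p = 6.0e-04), and POL30, the clamp itself, had 0.557, 0.481 and 0.485 in SMG 5, against 1.89, 2.29 and 1.27 in Ctrl 5, a log2 difference of -1.80 (SE 0.22, adjusted p = 0.0028). For POL30 and CLB6 the control nearest to SMG 5 was replicate 3. For CLB1, a mitotic cyclin, it was the farthest, with 0.416, 0.399 and 0.437 in SMG 5, against 2.06, 1.45 and 4.22 in Ctrl 5, a log2 difference of -2.48 (SE 0.37, adjusted p = 0.0055). Histones were mixed, with HTB2 at -0.99 (adjusted p = 0.0043), the variant HTZ1 at -0.77 (adjusted p = 0.0035) and the H3 gene HHT1 at 0.41 (adjusted p = 0.048).

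Genes of mother-daughter separation were among the largest falls. Of 17 members of this list and the kinase network that controls it 9 were lower and 1 higher (median -0.91). DSE1, made in daughter cells, had 0.241, 0.267 and 0.291 in SMG 5, against 1.56, 1.62 and 2.48 in Ctrl 5, a log2 difference of -2.80 (SE 0.20, adjusted p = 5.6e-04). DSE4, a glucanase that opens the septum, had 0.353, 0.36 and 0.353 in SMG 5, against 1.63, 1.55 and 3.49 in Ctrl 5, a log2 difference of -2.54 (SE 0.31, adjusted p = 0.0027). EGT2, which acts at the septum after division, had 0.423, 0.449 and 0.485 in SMG 5, against 2.04, 1.35 and 5.2 in Ctrl 5, a log2 difference of -2.43 (SE 0.47, adjusted p = 0.013). The control values of DSE4 and EGT2 were highest on replicate 3, and without it they were at -2.16 and -1.88 (adjusted p = 8.9e-05 and 9.1e-04). AMN1, which turns off exit from mitosis in daughters, was at -1.19 (adjusted p = 7.4e-04). HYM1, of the kinase network itself, was higher at 0.73 (adjusted p = 0.0051), while its kinase CBK1 had a difference of -0.02 (SE 0.09, adjusted p = 0.92).

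The study asked about the choice of bud sites. Of 43 genes of bud site selection and polarity 11 were lower and 2 higher (median -0.31), and without Ctrl 5 replicate 3 the counts were 20 and 3. RSR1, the GTPase at the centre of site selection, had 0.597, 0.564 and 0.556 in SMG 5, against 1.61, 1.79 and 1.37 in Ctrl 5, a log2 difference of -1.46 (SE 0.12, adjusted p = 8.2e-04). RAX2, a landmark of former bud sites in diploids, had 0.587, 0.618 and 0.567 in SMG 5, against 1.56, 1.39 and 2.12 in Ctrl 5, a log2 difference of -1.49 (SE 0.17, adjusted p = 0.002). BUD4, a landmark at the neck, and GIC1, an effector of the polarity GTPase, were at -1.23 and -1.09 (adjusted p = 0.0034 and 0.0019). The landmarks of the bipolar pattern BUD8 and BUD9 had differences of -0.31 (SE 0.09, adjusted p = 0.056) and -0.38 (SE 0.29, adjusted p = 0.42), and BUD8 passed without that array, at -0.37 (adjusted p = 0.013). RAX1, the partner of RAX2, had 0.85, 0.654 and 0.747 in SMG 5, against 2.05, 1.16 and 4.89 in Ctrl 5, and its difference of -1.60 did not pass (adjusted p = 0.062). Its controls spread widely, and without replicate 3 the difference was -1.05 (adjusted p = 0.025). BUD5, the exchange factor of RSR1, had 1.11, 1.33 and 1.32 in SMG 5, against 0.948, 0.896 and 0.583 in Ctrl 5 and a difference of 0.66 (adjusted p = 0.063), and 0.44 without replicate 3 (adjusted p = 0.028). BUD21 and BUD22, which carry the name from screens but act in the processome, were at -1.44 and -1.13 (adjusted p = 8.2e-04 and 0.0011). ASH1, a repressor inherited by daughters, was at -0.91 (adjusted p = 0.0031). BUD25, which the study lists as higher against its pooled controls, had 2.05, 0.934 and 1.52 in SMG 5, against 1.01, 1.3 and 0.992 in Ctrl 5. Its groups overlapped, and its difference of 0.39 did not pass (SE 0.29, adjusted p = 0.41).

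At the cell wall the counts ran in both directions. Of 27 genes of the cell wall integrity pathway, a cascade from membrane sensors through protein kinase C to the MAP kinase Slt2, 8 were higher and 3 lower (median 0.31). Among the sensors, SLG1 had 1.76, 1.52 and 1.68 in SMG 5, against 0.861, 0.859 and 0.729 in Ctrl 5, a log2 difference of 1.02 (SE 0.11, adjusted p = 0.002), and MTL1 was higher at 1.19 (adjusted p = 0.0033), while WSC4 had 0.344, 0.378 and 0.313 in SMG 5, against 1.8, 1.17 and 1.81 in Ctrl 5, a log2 difference of -2.18 (SE 0.19, adjusted p = 9.9e-04), and WSC2 was lower at -0.90 (adjusted p = 0.029). The sensors thus moved in opposite directions. The kinases PKH1 and PKH2, upstream in the cascade, rose by 1.03 and 1.69 (adjusted p = 0.0035 and 0.0053), SLT2 itself by 1.11 (adjusted p = 0.025), and SDP1, a phosphatase of Slt2, had 1.85, 1.78 and 1.57 in SMG 5, against 0.427, 0.417 and 0.11 in Ctrl 5, a log2 difference of 2.68 (SE 0.52, adjusted p = 0.014), and 2.04 without Ctrl 5 replicate 3. PTP2, another phosphatase of Slt2, had a difference of 1.16 that did not pass (adjusted p = 0.096), and 0.65 without that array (adjusted p = 0.0066). Of 51 cell wall proteins and wall enzymes 14 were lower and 2 higher. UTR2, which links chitin to glucan, had 0.422, 0.322 and 0.322 in SMG 5, against 1.22, 1.22 and 1.38 in Ctrl 5, a log2 difference of -1.85 (SE 0.14, adjusted p = 6.1e-04), and GAS1 and EXG1, of glucan remodelling, were at -0.82 and -0.98 (adjusted p = 0.0017 and 0.0021). In mannan synthesis PSA1, which makes GDP-mannose, was at -1.59 (adjusted p = 6.0e-04) and the mannosyltransferase MNN1 at -1.61 (adjusted p = 0.0016), within a list of 14 of 42 lower and 2 higher.

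Among the growth regulators themselves 11 of 35 genes of Ras, protein kinase A and TORC1 were higher and 5 lower (median -0.02), so members moved both ways. TPK2 and TPK3, catalytic subunits of protein kinase A, differed in sign. TPK2 had 1.41, 1.42 and 1.26 in SMG 5, against 0.634, 0.519 and 0.531 in Ctrl 5, a log2 difference of 1.28 (SE 0.12, adjusted p = 0.0011), and TPK3 had 0.607, 0.618 and 0.618 in SMG 5, against 1.4, 1.46 and 1.76 in Ctrl 5, a log2 difference of -1.32 (SE 0.11, adjusted p = 9.0e-04). The phosphodiesterases that end the cyclic AMP signal did so as well, with PDE1 at 1.95 (adjusted p = 0.015) and PDE2 at -1.18 (adjusted p = 0.0012). RAS1 was at -1.51 (adjusted p = 0.006) and RAS2 at 0.67 (adjusted p = 0.046). TOD6, a repressor of ribosome assembly genes, was lower along with those genes, with 0.797, 0.822 and 0.786 in SMG 5, against 2.03, 2.19 and 2.23 in Ctrl 5, a log2 difference of -1.42 (SE 0.09, adjusted p = 4.6e-04). YAK1, a kinase that protein kinase A opposes, rose by 1.65 (adjusted p = 0.011), GIS1 by 1.23 (adjusted p = 0.0098) and MSN4 by 1.25 (adjusted p = 0.013), while MSN2 had a difference of -0.27 (SE 0.14, adjusted p = 0.22).

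Lipid, mating and other lists held some further changes. PLN1, a protein of lipid droplets, had 2.79, 2.8 and 2.54 in SMG 5, against 0.942, 0.847 and 0.943 in Ctrl 5, a log2 difference of 1.57 (SE 0.10, adjusted p = 4.6e-04), in a list of 7 of 21 higher and 0 lower. The fatty acid elongases ELO1, ELO2 and ELO3 were at -0.91, -1.70 and -1.11 (adjusted p = 0.0019, 0.02 and 0.012), and CYB5, the cytochrome that serves sterol and lipid synthesis, had 0.552, 0.535 and 0.545 in SMG 5, against 1.31, 1.42 and 1.47 in Ctrl 5, a log2 difference of -1.36 (SE 0.09, adjusted p = 5.0e-04). Some mating genes, those specific to haploid cells, are off in diploid cells. STE18, the gamma subunit of the pheromone G protein, had 4.31, 5.03 and 4.46 in SMG 5, against 0.597, 1.07 and 0.429 in Ctrl 5, a log2 difference of 2.82 (SE 0.32, adjusted p = 0.0022), and MFA1, a pheromone gene, rose by 1.67 (adjusted p = 0.0073). The mating list held 3 of 26 higher (11.5%, against 18.0% of all named genes) and 2 lower. STE4, the partner of STE18, was at 0.12 (SE 0.21, adjusted p = 0.74). Of 44 meiosis and sporulation genes 5 (11.4%) were higher, against 18.0% of all named genes (median 0.42). The 1 that was lower was the repressor UME6 (-1.37, adjusted p = 0.0032). The counts were 11 higher and 5 lower without Ctrl 5 replicate 3 (median 0.05). In the hypoxic list, PAU24, of a family of wall mannoproteins, rose by 1.32 (adjusted p = 0.0011) and HEM13, of heme synthesis, by 1.26 (adjusted p = 0.0026), against TIR1, a wall mannoprotein, at -1.42 (adjusted p = 0.0084). PAU genes form a family of near-identical copies, so the member is uncertain. Of the strain's markers HIS3 was at -0.37 (adjusted p = 0.048), and LEU2, URA3, LYS2 and MET17 had differences of -0.11, 0.07, -0.73 and -0.68 that did not pass (adjusted p = 0.76, 0.84, 0.053 and 0.25), while LYS2 passed without replicate 3, at -0.48 (adjusted p = 0.0058).

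The arrays of 25 generations had no part in the fit above and allow the same genes to be read in other samples. On those 6 arrays 871 of the 873 probe sets had the same sign, as had 75.7% of all probe sets tested, and 376 of the 454 higher and 318 of the 419 lower ones changed the same way. Of all 8968 probe sets 1086 (12.1%) were changed and higher at 25 generations and 506 (5.64%) changed and lower. Without Ctrl 5 replicate 3, 730 of the 748 probe sets had the same sign. By the study's methods cultures were diluted and carried on, so the arrays of both times may come from the same cultures. TMA10 had a difference of 5.49 at 25 generations, MPC3 of 4.18, AAH1 of -3.53 and RNR1 of -3.18.

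A test of whether the LSMMG difference differed between the times, on all 12 arrays, passed for 15 probe sets (0.167%), of which 5 were changed at 5 generations. STP4, a zinc finger protein, had 2.52, 2.67 and 2.51 in SMG 5, against 0.806, 0.528 and 0.662 in Ctrl 5, a log2 difference of 1.97 (SE 0.16, adjusted p = 7.9e-04) at 5 generations and 0.31 at 25, and PLN1 had 0.05 at 25. These rises were thus larger at 5 generations, by 1.66 for STP4 and 1.52 for PLN1 on the log2 scale (adjusted p = 0.012 and 0.012). PRP43, a helicase of splicing and ribosome assembly, had 0.41, 0.41 and 0.404 in SMG 5, against 1.33, 1.19 and 1.62 in Ctrl 5, and CSI2, of unknown function, had 0.468, 0.453 and 0.448 in SMG 5, against 1.85, 1.98 and 1.48 in Ctrl 5. Both fell more at 5 generations, at -1.75 and -1.94, than at 25, at -0.44 and -0.67 (adjusted p of the difference = 0.034 and 0.018). AQR1, a plasma membrane exporter, fell less at 5 generations, at -1.73, than at 25, at -3.14 (adjusted p of the difference = 0.029). The number of such probe sets depended on single arrays: it was 17 without SMG 5 replicate 1, 0 without SMG 5 replicate 2, 3 without SMG 5 replicate 3, 11 without Ctrl 5 replicate 1, 7 without Ctrl 5 replicate 2 and 1682 without Ctrl 5 replicate 3. In the limma fit that gave 0, 995 probe sets had an unadjusted p under 0.05.

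**Figure D5:**
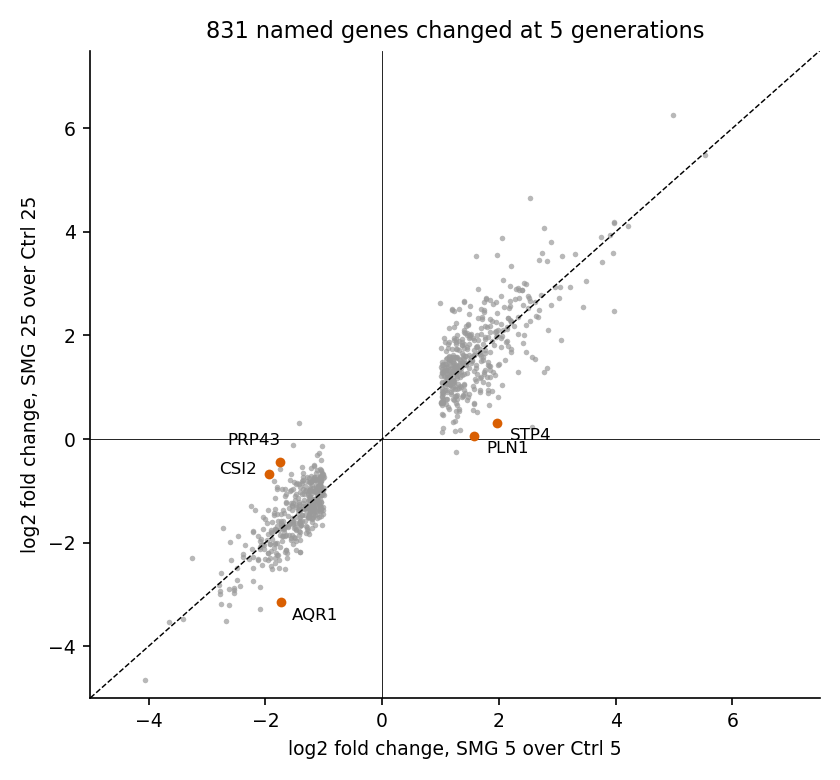
Log2 fold change of SMG over Ctrl at 5 generations (x axis) and at 25 generations (y axis), each from its own 6 arrays, for the 831 named genes changed at 5 generations, with a dashed line of equal change. Named orange points are the 5 genes whose difference between the times passed in the fit of 12 arrays, and 829 of the 831 genes lie in the same quadrant at both times.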

How the data were processed

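Affymetrix Yeast Genome 2.0 arrays of SMG 5 and Ctrl 5 cultures were read from a table of ratios that the authors deposited, made from RMA values, scaled to a median of 1 on each array and to the typical level of each probe set. Deposited ratios were converted to log2 with no pseudocount. Probe sets annotated to a gene of Schizosaccharomyces pombe (1746) and array controls (213) were left out. The 3470 probe sets without a gene name were kept and were not sorted by species, so some may be of S. pombe. With probe sets of a single named gene alone 854 changed, 438 higher and 416 lower. Gene names came from the platform annotation, updated through RefSeq. Where a gene had more than 1 probe set (47 genes) that of highest mean ratio on the 6 arrays stood for it. As ratios do not rank probe sets by signal, this choice can favour the probe set with the larger difference. With that of lowest mean ratio instead, 983 named genes were higher and 1021 lower, against 981 and 1024.

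The 6 arrays were fitted with limma 3.58.1 in R 4.3.3 (lmFit and eBayes) and p-values adjusted by the Benjamini-Hochberg method over 8968 probe sets, and the script was tested on simulated data. The difference between times used all 12 arrays in 4 groups. The deposited ratios do not hold intensities, so the intensity minimum of the methods was not applied. The number of arrays limits the precision. The members and the 57 gene lists were chosen with earlier results of these data known. Genes named came from the 20 largest rises and falls and up to 6 members of each list by size of test statistic. Others were genes the study names, strain markers and genes that differed between times. Not every gene of these groups is printed. Outside this rule, DDR2, CTT1, HSP12, HSP26, HSP42, HSP104, GSY1, GSY2, MIG1, MIG3, HXT1, HXT2, CDC19, PGK1, TDH3, PDC1, ADH1, HXK1, HXK2, ATG8, TIF6, UTP20, RPL18B, RPS18A, RPL16B, RNR2, RNR4, RNR3, CLN3, POL30, CBK1, SLT2, PDE1, RAS2, YAK1, GIS1, MSN4, MSN2, STE4 and ALG14 were chosen after their values were seen. Alternatives were other scalings, arrays, tests and filters.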

Additional observations from a re-analysis of the deposited data

Results flagged for a closer look

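For 5 changed genes the LSMMG difference differed between the times in the fit of 12 arrays. The difference at 25 generations minus that at 5 was -1.66 for STP4, -1.52 for PLN1, -1.41 for AQR1, 1.31 for PRP43 and 1.28 for CSI2 on the log2 scale (adjusted p between 0.012 and 0.034). These calls depended on single arrays, as the counts of 0 without SMG 5 replicate 2 and 1682 without Ctrl 5 replicate 3 show.

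Probe sets annotated to S. pombe genes, which should detect no RNA of this yeast, were kept in the test as an alternative. Of these 1746, 13 passed at an adjusted p under 0.05. None reached 2-fold, and the largest difference was 0.752 on the log2 scale.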

How the results depend on the processing

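The count of 873 changed probe sets (454 higher, 419 lower) was 2132 with no fold minimum (1057 higher, 1075 lower) and 1677 at 1.5-fold (853 higher, 824 lower). With all 6 control arrays as 1 group it was 1293, of which 809 were higher. The methods' test, run on the same values, gave 162 (38 higher, 124 lower), so that 23.5% of the calls were higher, against 52.0% in the limma fit. Other scalings, filters and priors gave between 755 and 1009 calls, with 49.5% to 54.0% higher for median centring, quantile normalization and a pseudocount of 0.1. Leaving out 1 array in turn gave between 608 and 1034 calls, between 262 and 551 higher and between 343 and 483 lower. For the difference between times, 15 probe sets became between 0 and 1682. The replicate numbers did not pair the arrays, since the deviations of same-numbered arrays correlated at -0.00415, -0.278 and 0.0295, and the replicate block gave 810 calls, 400 of them higher. Of 226 named genes followed through the alternatives, 189 passed, and none changed sign between the limma fit and an alternative where either passed. Without an SMG 5 array between 36 and 43 of them no longer passed, and 138 under the methods' test. Without Ctrl 5 replicate 1, SSB1, MIG3, CYC8, MPC2, HHT1, WSC2, RAS2, HIS3, COP1, PUF3 and PMA1 no longer passed, and without replicate 2, TSL1, PYK2, MPC2, RAS2 and HIS3. The log2 fold change of TMA10 was 4.24 with a pseudocount of 0.1 and that of SPG4 3.47. List medians kept their sign in 1060 of 1083 recomputations, and those that did not were of permeases, histones, Ras and protein kinase A, mating, hypoxic, cell wall, phospholipid, proton pump and ribonucleotide reductase lists. The cause of these differences was not tested. Promoter motifs were not run. Values in ratios carry no depth, so low signals could not be told from background, and the fold changes of the largest rises rest on control ratios far below 1.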

Other observations

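Of 48 nuclear pore proteins and karyopherins 15 (31.2%) were lower, against 18.8% of all named genes, and 2 higher (median -0.40), among them POM152, a membrane ring protein of the pore (0.733, 0.715 and 0.679 in SMG 5, against 1.27, 1.49 and 1.96 in Ctrl 5, a log2 difference of -1.13, adjusted p = 0.0054), and the import receptors SXM1 and PSE1 at -0.85 and -0.63 (adjusted p = 0.0031 and 0.012). Of 22 secretory coat and exocyst genes 5 (22.7%) were lower and 0 higher, a share near that of all named genes, and COP1, of the coat of Golgi vesicles, was at -0.92 (adjusted p = 0.016). In mRNA decay 8 of 39 (20.5%) were lower and 3 higher, also near it. LSM5, of the ring that binds RNA ends, was at -1.21 (adjusted p = 9.9e-04), while PUF3, which binds messages of mitochondrial proteins, was at 1.28 (adjusted p = 0.016).

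In fatty acid synthesis 7 of 13 were lower and 1 higher, and in sterol synthesis 9 of 34 were lower and 1 higher. FAS1, of the fatty acid synthase, was at -0.69 (adjusted p = 0.0077), and EPT1, an enzyme of phospholipid synthesis, at -1.10 (adjusted p = 8.2e-04), in a list of 3 of 23 higher and 3 lower. Iron uptake was mixed, with 6 of 33 higher and 5 lower, and 10 and 6 without Ctrl 5 replicate 3. CTH1, which destabilizes messages when iron is low, was at 1.25 (adjusted p = 0.0012). Sulfate assimilation held 4 of 30 lower and 2 higher, and 7 of each without that array, with MET8, of siroheme synthesis, at -1.38 (adjusted p = 8.2e-04). Nitrogen use held 6 of 37 higher (16.2%, near the 18.0% of all named genes) and 4 lower. PUT3, the activator of PUT1, was at -1.07 (adjusted p = 0.0022) beside the rise of PUT1 itself by 3.76. Among proton pumps 5 of 28 (17.9%) were higher, near the 18.0% of all named genes, and 3 lower. RAV2, which helps assemble the vacuolar pump, had 1.48, 1.52 and 1.43 in SMG 5, against 0.533, 0.578 and 0.558 in Ctrl 5, a log2 difference of 1.41 (SE 0.09, adjusted p = 4.6e-04), and the plasma membrane pump PMA1 was at -0.47 (adjusted p = 0.048).

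Some changed genes lay beside one another in the genome. Of 757 neighbours of the 421 higher genes, 82 (10.8%) were higher too, against 7.73% of all named genes, and of 765 neighbours of the 410 lower genes, 90 (11.8%) were lower too, against 7.52%, and these shares were not tested. PHO3 and PHO5, at -2.73 and -2.35, are such a pair, and TAT1 and ALG14, a gene of glycan synthesis, at -2.38 and -1.83, are another. Neighbours can share a promoter, be copies of each other or belong to 1 pathway, and these were not separated.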
